A study of Mus musculus with 6 samples.

Results

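Progenitors that line the ventricle of the embryonic ventral forebrain are marked by 9 genes followed here across KO and WT libraries: the transcription factor genes Gsx1, Gsx2, Sox2, Sox3 and Sox9, and the radial glia genes Nes, Fabp7, Slc1a3 and Ptprz1. The members were the 9 rows with these symbols out of 36291 gene rows of the count table, 5 of them transcription factors and 4 structural or membrane genes of radial glia. All 9 passed the filter on low counts. Messenger RNA had been sequenced from green fluorescent cells, sorted at E14.5 from the telencephalon of embryos of the Swiss strain, in which an Nkx2-1-iCre driver had acted. The KO group held 3 libraries labelled as a knockout of Sip1, the older name of the transcription factor gene Zeb2, in this Nkx2-1 lineage, and the WT group held the 3 control libraries. Both groups therefore shared the strain, the stage, the tissue, the driver and the sort, and differed by the label of the Sip1 allele. The driver limits the model to cells of the Nkx2-1 lineage, and the labels did not say which part of Sip1 was deleted, which Sip1 alleles the controls carried, or whether embryos were pooled. Each genotype had 1 library with each of the numbers K77, K79 and K80, whose meaning the labels did not give.

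Radial glia are the dividing cells of the ventricular zone that give rise to neurons and later to glia, and their long fibres guide migrating neurons. In the ventral telencephalon they are patterned by the homeobox genes Gsx1 and Gsx2, while the SoxB1 factors Sox2 and Sox3 hold neural cells in the progenitor state and Sox9 acts in stem cell maintenance and glial fate. Nestin, the brain lipid-binding protein Fabp7 and the glutamate transporter Slc1a3, also called GLAST, are standard markers of these cells. The Nkx2-1 lineage also holds the interneurons that leave the ventral telencephalon for the cortex. In a bulk library fewer cells of a type and less RNA per cell cannot be told apart.

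Zeb2 was lower in KO, at 308 ± 35.6 CPM against 662 ± 133 CPM in WT (SD, n = 3 each; log2 fold change -1.11, SE 0.138, edgeR adjusted p = 0.00116). CPM is the read count scaled to a fixed library total after correction for library composition, and each log2 fold change is KO over WT. Gene counts totalled 8323531 to 11069437 per library. Only WT K79 held many counts of the X-inactivation transcript Xist, 26109 against 13 to 28 in the other 5 libraries, and it held 0 to 3 counts of each of the Y-linked genes Ddx3y, Eif2s3y, Kdm5d and Uty. Sox3 lies on the X chromosome, so its values are also given without that library. Across the 13835 genes tested, edgeR called 6.27% at an adjusted p under 0.05, with 3.64% higher and 2.62% lower in KO, and the median log2 fold change was -0.01.

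Of the 9 members, 2 rose in KO and 0 fell. Both were transcription factor genes, Gsx2 and Sox3, each a little under 2-fold higher. The 3 members with the most CPM, Ptprz1, Sox2 and Nes, differed by less than the spread between libraries. Slc1a3 was higher in KO in each pair of libraries with the same K number, and it passed the test with the K number as a block but not in the unblocked fit with the low-count filter. Among members lower in KO the edgeR count was 0, also by DESeq2, by limma voom and with the block. An unadjusted p under 0.05 was reached by 2 of 5 factors and 1 of 4 structural genes, each higher in KO. In either direction, 18.4% of all tested genes passed that level.

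**Figure D1:**
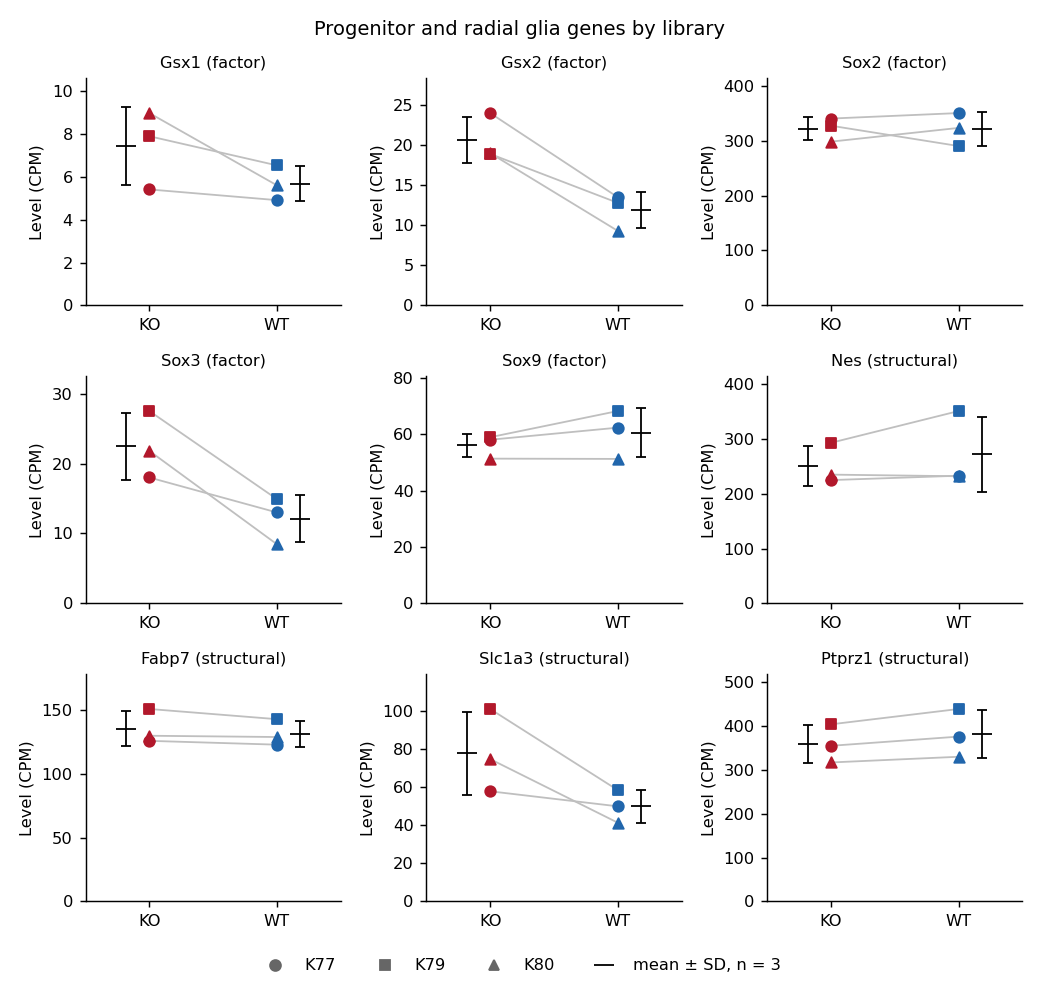
Level in CPM (y axis, from 0) of each of the 9 members in the KO libraries (red) and the WT libraries (blue), with grey lines joining libraries that share a K number and black bars for the mean ± SD of 3 libraries. The KO points lie above every WT point for Gsx2 and Sox3, and the groups overlap for the other 7 genes.

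Gsx2 encodes a homeodomain factor that specifies progenitors of the ventral telencephalon, above all those of the lateral ganglionic eminence. It stood at 24.0, 18.9 and 19.0 CPM in KO K77, K79 and K80, against 13.5, 12.8 and 9.30 CPM in WT K77, K79 and K80. Every KO library lay above every WT library, a pattern that 11.8% of all tested genes shared with the same direction. The mean was 20.7 ± 2.92 CPM in KO and 11.9 ± 2.25 CPM in WT (SD, n = 3 each), a 1.74-fold difference (log2 fold change 0.80, SE 0.163, 95% interval 0.44 to 1.16, edgeR adjusted p = 0.0171). The call was lost without KO K77 (adjusted p = 0.0513), and with each of the other libraries left out in turn the adjusted p lay between 0.0243 and 0.0486.

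Gsx1, the paralogue of Gsx2, was the least abundant member. Its read counts were 45, 80 and 99 over KO K77, K79 and K80, against 45, 68 and 59 over WT K77, K79 and K80. In CPM this was 7.43 ± 1.83 in KO and 5.68 ± 0.812 in WT (SD, n = 3 each), and the groups overlapped. At 0.40 on the log2 scale (SE 0.214) the change did not pass the edgeR test (adjusted p = 0.379), and its 95% interval of -0.08 to 0.87 contains the value found for Gsx2. Whether Gsx1 and Gsx2 differ in their change was not tested. No run of 36 bases, the length of the reads, was shared between the transcripts of Gsx1 or Gsx2 and those of any other gene in the GENCODE M21 annotation, so no read could match both exactly.

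Sox3 encodes an HMG-box factor of the SoxB1 group and is X-linked. It stood at 18, 27.5 and 21.8 CPM in KO K77, K79 and K80, against 13.0, 14.9 and 8.45 CPM in WT K77, K79 and K80. The highest WT library, K79, was the one with Xist counts, and it still lay below the lowest KO library. The mean was 22.5 ± 4.78 CPM in KO and 12.1 ± 3.30 CPM in WT (SD, n = 3 each), a 1.87-fold difference (log2 fold change 0.90, SE 0.212, 95% interval 0.43 to 1.37, edgeR adjusted p = 0.034). Without WT K79 the log2 fold change was 1.08 (adjusted p = 0.0188), and without both K79 libraries it was 0.91 (adjusted p = 0.0673). The call was also lost without KO K79 (adjusted p = 0.154), KO K80 (0.111), WT K77 (0.0841) or WT K80 (0.0693), with log2 fold changes of 0.69 to 0.95.

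Sox2, the SoxB1 factor closest to Sox3 in role and the most abundant factor of the 5, showed no such difference. It stood at 340, 327 and 298 CPM in KO K77, K79 and K80, against 350, 290 and 323 CPM in WT K77, K79 and K80. The groups overlapped almost completely. The log2 fold change was 0.01 (SE 0.08, edgeR adjusted p = 0.986) with a 95% interval of -0.17 to 0.18. Sox3 therefore reached 7.01 ± 1.58% of the Sox2 CPM in KO and 3.82 ± 1.26% in WT (SD, n = 3 each), with 5.30 to 8.41% over the KO libraries and 2.62 to 5.13% over the WT libraries. Of the 36-base runs in the transcripts, 0.297% for Sox2 and 0.493% for Sox3 occurred in another gene, in Sox1 or Sox21.

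Sox9, a SoxE factor, averaged 56.2 ± 4.15 CPM in KO and 60.7 ± 8.66 CPM in WT (SD, n = 3 each). Its libraries ranged over 51.4 to 59.0 CPM in KO and 51.3 to 68.3 CPM in WT, so the groups overlapped. The log2 fold change was -0.11 (SE 0.109, 95% interval -0.35 to 0.13, edgeR adjusted p = 0.662).

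**Figure D2:**
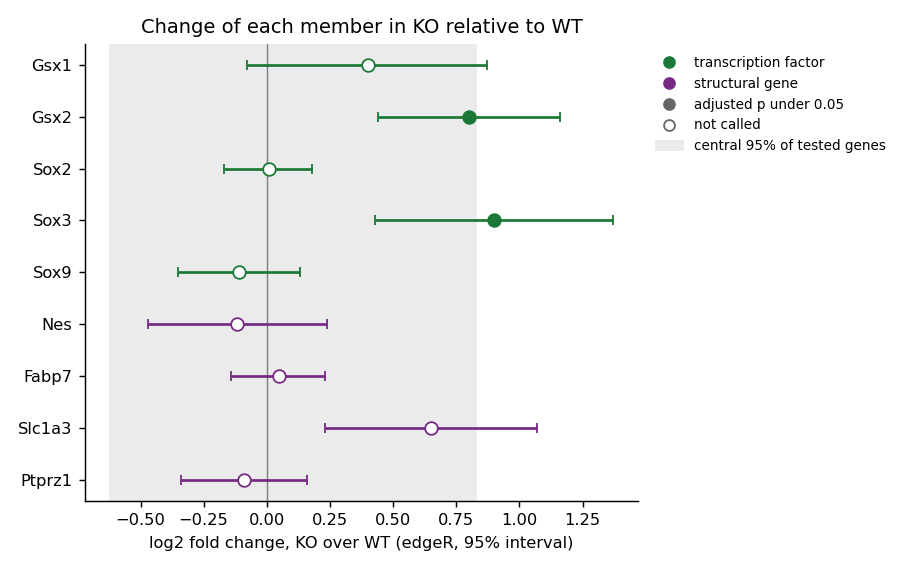
Log2 fold change of each member in KO relative to WT from the edgeR fit without a block, with 95% intervals, for the transcription factor genes (green) and the structural genes (purple). Filled points, Gsx2 at 0.80 and Sox3 at 0.90, passed an adjusted p of 0.05, and the grey band from -0.62 to 0.83 holds the central 95% of all tested genes.

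Among the structural genes, Slc1a3 stood apart. It encodes the glutamate and aspartate transporter that radial glia and astrocytes use to take up glutamate. It stood at 57.8, 101 and 74.7 CPM in KO K77, K79 and K80, against 49.9, 58.4 and 41.3 CPM in WT K77, K79 and K80. KO K77 lay just below WT K79, so the genotypes overlapped, while in each K number the KO library was the higher one. The mean was 78.0 ± 21.9 CPM in KO and 49.9 ± 8.58 CPM in WT (SD, n = 3 each), a 1.57-fold difference (log2 fold change 0.65, SE 0.187, 95% interval 0.23 to 1.07). Without a block the edgeR adjusted p was 0.0773 (unadjusted p = 0.00628). Blocking on the K number gave 0.63 (SE 0.112, edgeR adjusted p = 0.00651), in a fit that called 10.6% of all tested genes, 6.13% higher and 4.45% lower. The unblocked fit also called it with no filter on low counts (adjusted p = 0.00211). Without KO K77 it gave 0.82 (adjusted p = 0.019), and leaving out another single library gave adjusted p-values of 0.0518 to 0.262.

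The other 3 structural genes stayed within the spread of the libraries. Nes, the intermediate filament of neural progenitors, stood at 225, 293 and 235 CPM in KO K77, K79 and K80, against 233, 351 and 232 CPM in WT K77, K79 and K80. Its change of -0.12 on the log2 scale (SE 0.158, edgeR adjusted p = 0.777) turned to 0.11 without WT K79, the highest library. Fabp7, which binds fatty acids in radial glia, averaged 136 ± 13.6 CPM in KO and 132 ± 10.1 CPM in WT (SD, n = 3 each; log2 fold change 0.05, SE 0.0833, 95% interval -0.14 to 0.23, edgeR adjusted p = 0.835). Ptprz1, a receptor-type tyrosine phosphatase that binds the growth factor pleiotrophin, averaged 359 ± 43.4 CPM in KO and 382 ± 54.4 CPM in WT (SD, n = 3 each; log2 fold change -0.09, SE 0.112, 95% interval -0.34 to 0.16, edgeR adjusted p = 0.75). Slc1a3 accordingly amounted to 56.8 ± 10.6% of the Fabp7 CPM in KO and 37.9 ± 5.17% in WT (SD, n = 3 each), and its lowest KO value, 45.9%, lay above its highest WT value, 41.0%. The CPM of Slc1a3 itself overlapped between the genotypes. How many genes separate the genotypes as a share of Fabp7 was not counted.

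Zeb2 binds DNA through the sequence CACCT, usually as a pair of such sites, and the upstream sequences of 3 members are shown to place this sequence: Gsx2, which rose, Slc1a3, which rose in the blocked fit, and Ptprz1, which passed neither test. RefSeq promoter windows in GRCm38.p6, a later build than the mm9 named for the counts, matched 7 of the 9 members. Each sequence holds the 250 bases before the annotated start, and capitals mark CACCT on the printed strand; AGGTG, its complement, was searched too and was not in these 3 windows. The motif overlaps the E-box CACCTG.
Gsx2 (chr5:75075351-75075600, plus strand): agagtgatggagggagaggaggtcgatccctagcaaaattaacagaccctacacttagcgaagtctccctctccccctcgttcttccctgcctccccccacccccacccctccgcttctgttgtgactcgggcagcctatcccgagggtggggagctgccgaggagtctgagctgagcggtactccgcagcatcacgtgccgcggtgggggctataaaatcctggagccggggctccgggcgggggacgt
Slc1a3 (chr15:8710808-8711057, minus strand): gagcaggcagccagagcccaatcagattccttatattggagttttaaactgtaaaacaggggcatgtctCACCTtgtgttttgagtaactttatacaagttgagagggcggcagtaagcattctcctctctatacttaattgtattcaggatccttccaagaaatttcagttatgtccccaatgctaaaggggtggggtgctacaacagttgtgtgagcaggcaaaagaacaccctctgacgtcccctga
Ptprz1 (chr6:22875252-22875501, plus strand): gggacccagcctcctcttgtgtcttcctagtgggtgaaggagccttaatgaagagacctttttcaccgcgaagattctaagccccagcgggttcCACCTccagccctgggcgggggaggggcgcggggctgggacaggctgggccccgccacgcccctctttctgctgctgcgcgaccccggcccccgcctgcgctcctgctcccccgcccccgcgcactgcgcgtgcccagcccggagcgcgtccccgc
The Gsx2 window held no match. The Slc1a3 match began 181 bases and the Ptprz1 match 156 bases before the start. In all, 2 of the 7 members with a window held CACCT on either strand, against 46.0% of 32851 windows of 27025 genes. A match is a string in the window and not a measured binding site.

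Setting the factors against the structural genes gave a different picture by count than by summed level. By count, 2 of 5 factors and 0 of 4 structural genes rose in the unblocked fit, and 2 of 5 and 1 of 4 with the block. Of all tested genes, 3.64% rose in the unblocked fit and 6.13% with the block. The structural count turned on Slc1a3, whose adjusted p in the unblocked edgeR fit was 0.0773. On the log2 scale the median change was 0.40 for the factors and -0.02 for the structural genes. With so few genes chosen by name, no test was made of that difference. The factor median was the value of Gsx1, which was not called, with Gsx2 and Sox3 above it and Sox2 and Sox9 below it. The summed level of the 5 factors was 446, 441 and 400 CPM in KO K77, K79 and K80, against 444, 392 and 397 CPM in WT K77, K79 and K80. The summed level of the 4 structural genes was 764, 950 and 757 CPM in KO K77, K79 and K80, against 782, 991 and 733 CPM in WT K77, K79 and K80. The factor sum was thus 52.5 ± 5.96% of the structural sum in KO and 50.2 ± 9.27% in WT (SD, n = 3 each), a log2 difference of 0.08 that was smaller than the SD of 0.283 between WT libraries. Sox2 alone made up 75.1 ± 1.06% of the factor sum in KO and 78.0 ± 3.73% in WT, so the sum mostly followed Sox2. Counting each gene equally on the log2 scale, the factors averaged 5.16 ± 0.0808 in KO and 4.77 ± 0.183 in WT, and the structural genes 7.44 ± 0.217 in KO and 7.32 ± 0.214 in WT (mean log2 CPM ± SD, n = 3 each). By this measure the difference of factors minus structural genes was 0.28 higher in KO than in WT, with an SD of 0.142 between KO libraries and 0.123 between WT libraries. The measure was chosen after seeing the data. It includes Gsx2 and Sox3, so it is no separate evidence beside their calls. KO was the higher library in each K number, by 0.23 in K77, 0.21 in K79 and 0.39 in K80, while the genotypes overlapped, since KO K79 at -2.44 lay below WT K77 at -2.42. By the sums, the log2 differences were 0.04 in K77, 0.23 in K79 and -0.04 in K80.

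The called genes were among the scarce members. Per kilobase of annotated exon, a scale that allows levels of different genes to be compared, Sox2 was highest at 156 ± 10.4 RPKM in KO and 156 ± 14.6 RPKM in WT, followed by Fabp7 at 109 ± 10.9 RPKM in KO and 105 ± 8.07 RPKM in WT (SD, n = 3 each). Nes came next at 41.0 ± 6.01 RPKM in KO and 44.4 ± 11.2 RPKM in WT, and Ptprz1 at 35.9 ± 4.34 RPKM in KO and 38.2 ± 5.44 RPKM in WT. The library ranges of Nes and Ptprz1 overlapped in both genotypes. Whether these genes differ in level within libraries was not tested. Slc1a3 followed in KO at 17.7 ± 4.98 RPKM, against 11.3 ± 1.95 RPKM in WT, and Sox9 at 13.6 ± 1.00 RPKM, against 14.7 ± 2.10 RPKM in WT. Slc1a3 and Sox9 overlapped in both genotypes. Gsx2 reached 12.4 ± 1.75 RPKM in KO and 7.12 ± 1.35 RPKM in WT, and Sox3 10.9 ± 2.31 RPKM in KO and 5.86 ± 1.6 RPKM in WT. Gsx2 and Sox3 overlapped in level within each genotype. Gsx1 was lowest at 4.19 ± 1.03 RPKM in KO and 3.20 ± 0.458 RPKM in WT, below every library of Sox3 of the same genotype. These RPKM values use GENCODE M21 exon lengths in place of the annotation used for counting, so they order the genes only roughly.

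Comparing libraries that share a K number separated the members more sharply. KO lay above WT in 3 of 3 pairs for 5 of the 9 members, Gsx1, Gsx2, Sox3, Fabp7 and Slc1a3, against 22.3% of all tested genes. For Fabp7 the pairs were nearly level, with KO to WT ratios of 1.00 to 1.06. The ratio ran from 1.48 to 2.05 for Gsx2, from 1.39 to 2.59 for Sox3, from 1.16 to 1.81 for Slc1a3 and from 1.1 to 1.6 for Gsx1. K80 gave the highest of the 3 ratios for each of these 4 genes. It also gave the lowest ratio for Zeb2, at 0.4 against 0.487 in K77 and 0.53 in K79. Between K77 and K79 the order was not the same. K77 had the lower Zeb2 ratio, and its ratios for Gsx1 (1.1), Sox3 (1.39) and Slc1a3 (1.16) were below those of K79 (1.21, 1.85 and 1.73). For Gsx2 the K77 ratio was the higher one, at 1.78 against 1.48. A relation of these ratios to that of Zeb2 was not tested. How many of all tested genes differed most in K80 was not counted. Ptprz1 was the only member lower in KO in 3 of 3 pairs, with ratios of 0.921 to 0.961, a direction that 22.1% of all tested genes showed in 3 of 3 pairs.

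**Figure D3:**
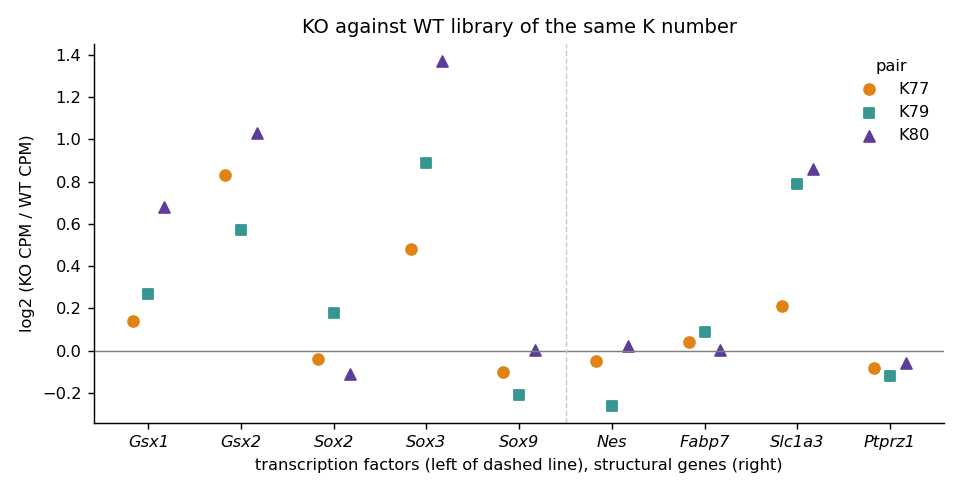
Log2 ratio of KO CPM to WT CPM within each K number (y axis) for the 9 members, with K77 as circles, K79 as squares and K80 as triangles. All 3 points lie above 0 for Gsx1, Gsx2, Sox3 and Slc1a3, and the K80 points of those genes, 0.68, 1.03, 1.37 and 0.86, are the highest.

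The level of the glial genes also varied with the K number within each genotype. K79 was the highest of the 3 libraries in both KO and WT for 6 of the 9 members, Sox3, Sox9, Nes, Fabp7, Slc1a3 and Ptprz1, against 14.4% of all tested genes. Nes, for example, stood at 293 CPM in KO K79 and 225 to 235 CPM in the other KO libraries, and at 351 CPM in WT K79 and 232 to 233 CPM in the other WT libraries. Sox2 and Gsx2 were highest in K77 in both genotypes. The part of the K number in the levels was not tested beyond the blocked fit.

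To describe which genes followed the same course, the log2 CPM of each gene was centred on its mean over the 6 libraries and compared with each member by the root mean square difference. Among 7932 genes of at least 20 CPM on average, Gsx2 was nearest to Nkx2-1, the homeobox gene of the medial ganglionic eminence (difference 0.12), and to Vav3, which encodes a guanine nucleotide exchange factor (0.124). Their log2 fold changes were 0.70 for Nkx2-1 (edgeR adjusted p = 0.00301) and 0.69 for Vav3 (adjusted p = 0.0321). Because nearness was measured on the same 6 libraries, a gene near a member has a similar fold change by construction. Sox3 was nearest to the corepressor gene Tle4 (0.0666; log2 fold change 0.86, adjusted p = 0.0132) and to the heparan sulfate sulfotransferase gene Hs6st2 (0.121; log2 fold change 0.75, adjusted p = 0.0579). Slc1a3, compared with 7931 genes, was nearest to AW551984 (0.083) and to the zinc finger gene Zfp521 (0.106; log2 fold change 0.61, adjusted p = 0.0402). The nearest genes were Gria3 (0.075) and A030009H04Rik (0.0828) for Gsx1, Slc35e2 (0.0242) and Dbr1 (0.0295) for Sox2, and Sall3 (0.0333) and Fam53b (0.0377) for Sox9. They were Iqgap2 (0.0524) and Col5a2 (0.0713) for Nes, Ide (0.035) and Polr2b (0.0364) for Fabp7, and Sall3 (0.0338) and Tubgcp6 (0.0379) for Ptprz1. For scale, the centred values themselves had a root mean square of 0.447 for Gsx2, 0.54 for Sox3 and 0.413 for Slc1a3. Within the 9 members the closest pair was Sox9 and Ptprz1 (0.0615), and Sox3 was closest to Slc1a3 (0.186).

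Around the Gsx genes, edgeR called 3 of 13 tested ventral factors and GABA genes higher and 2 lower, and left 8 uncalled. Among all tested genes it called 3.64% higher and 2.62% lower. DESeq2 called 2 of the list higher and 3 lower, and the blocked fit 3 and 3. Among all tested genes the blocked fit called 6.13% higher and 4.45% lower. An unadjusted p under 0.05 was reached by 6 of the 13 in either direction, beside 18.4% of all tested genes. The median log2 fold change was -0.02, beside -0.01 for all tested genes. Gad2, which encodes a GABA-synthesizing enzyme, rose to 993 ± 76.6 CPM in KO, against 672 ± 39.5 CPM in WT (SD, n = 3 each; log2 fold change 0.56, edgeR adjusted p = 0.00124). Nkx2-1, on whose lineage the sort rested, was detected in both genotypes and rose to 625 ± 34.8 CPM in KO, against 384 ± 60.3 CPM in WT. Gad2 and Nkx2-1 each kept their call in all 6 fits that left out a library. The LIM-homeobox gene Isl1 was the remaining riser (log2 fold change 0.96, adjusted p = 0.0342), a call lost without KO K79, KO K80, WT K77 or WT K80 (adjusted p up to 0.153). Dlx5 (log2 fold change -0.45) and Dlx6 (-0.40), homeobox genes of later ventral precursors and neurons, fell. Dlx6 is uncertain because it overlaps an antisense gene, and no strand setting of the counting step was found in the labels. Without KO K79, KO K80 or WT K77, 0 members of this list fell by edgeR.

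Other transcription factors of forebrain progenitors were mostly not called. Among 24 tested, edgeR called 3 higher and 1 lower and left 20 uncalled, beside 3.64% higher and 2.62% lower among all tested genes. An unadjusted p under 0.05 was reached by 9 of the 24 in either direction, beside 18.4% of all tested genes. The median log2 fold change of the list was -0.16, and Sox1 was not analysed here. Otx2, a homeobox factor of the rostral brain, stood at 26.4 ± 9.86 CPM in KO and 8.01 ± 5.95 CPM in WT (SD, n = 3 each; log2 fold change 1.71, SE 0.434, edgeR adjusted p = 0.0461). Id4, which blocks basic helix-loop-helix proteins, rose by 0.67 (adjusted p = 0.0355), and Sox6, which acts in young interneurons as well as in progenitors, rose by 0.35 (adjusted p = 0.0183). Rest, the repressor of neuronal genes in non-neuronal cells, fell by 0.58 on the log2 scale (adjusted p = 0.0167). Each of these 4 calls was lost in 3 or 4 of the 6 fits that left out a library, with adjusted p up to 0.184 for Otx2, 0.154 for Id4, 0.0694 for Sox6 and 0.0857 for Rest, and without KO K80 edgeR called 0 of the 24 in either direction.

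Other radial glia genes were mostly uncalled. Among 25 tested, edgeR called 1 higher and 0 lower and left 24 uncalled, with a median of 0.06 (log2 fold change). Its calls among all tested genes were 3.64% higher and 2.62% lower. An unadjusted p under 0.05 was reached by 6 of the 25 in either direction, beside 18.4% of all tested genes. DESeq2 and limma voom each called 1 higher and 1 lower. Blocking on the K number gave 3 higher and 1 lower, in a fit that called 6.13% of all tested genes higher and 4.45% lower. The riser was Dll1, a Notch ligand (0.28, SE 0.0661, edgeR adjusted p = 0.0325). Its call was lost on leaving out KO K77, KO K79, KO K80, WT K77 or WT K80, with 0 calls higher in each of those fits, and without WT K79 the list had 4 higher. Vim, the filament partner of nestin, stood at 315 ± 9.84 CPM in KO and 367 ± 14.4 CPM in WT (SD, n = 3 each; log2 fold change -0.22, adjusted p = 0.0517, blocked 0.0218). Slc1a2, the other glial glutamate transporter, stood at 136 ± 17.7 CPM in KO and 107 ± 28.3 CPM in WT (log2 fold change 0.34, adjusted p = 0.293, blocked 0.0183).

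Paralogues and partners of the members changed in single cases. Of 12 paralogues tested 1 rose and 1 fell, or 2 and 2 in the blocked fit. Of all tested genes, 3.64% were called higher and 2.62% lower, or 6.13% and 4.45% in the blocked fit. Ptprg, the phosphatase gene nearest to Ptprz1, rose to 172 ± 15.0 CPM in KO, against 87.5 ± 19.7 CPM in WT (SD, n = 3 each; log2 fold change 0.97, SE 0.134, edgeR adjusted p = 0.00203), whereas Ptprz1 itself did not pass the test. Whether the pair differ was not tested. Sox10, the SoxE relative of Sox9 that marks the oligodendrocyte lineage, fell to 0.259 ± 0.243 CPM in KO, against 2.88 ± 0.696 CPM in WT (adjusted p = 0.00401). Of 9 ligands and partners of Ptprz1, 1 rose and 0 fell, or 2 and 0 in the blocked fit. Ptn, which encodes the Ptprz1 ligand pleiotrophin, rose to 106 ± 0.391 CPM in KO, against 82.4 ± 1.5 CPM in WT (log2 fold change 0.36, SE 0.0567, adjusted p = 0.00406).

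**Figure D4:**
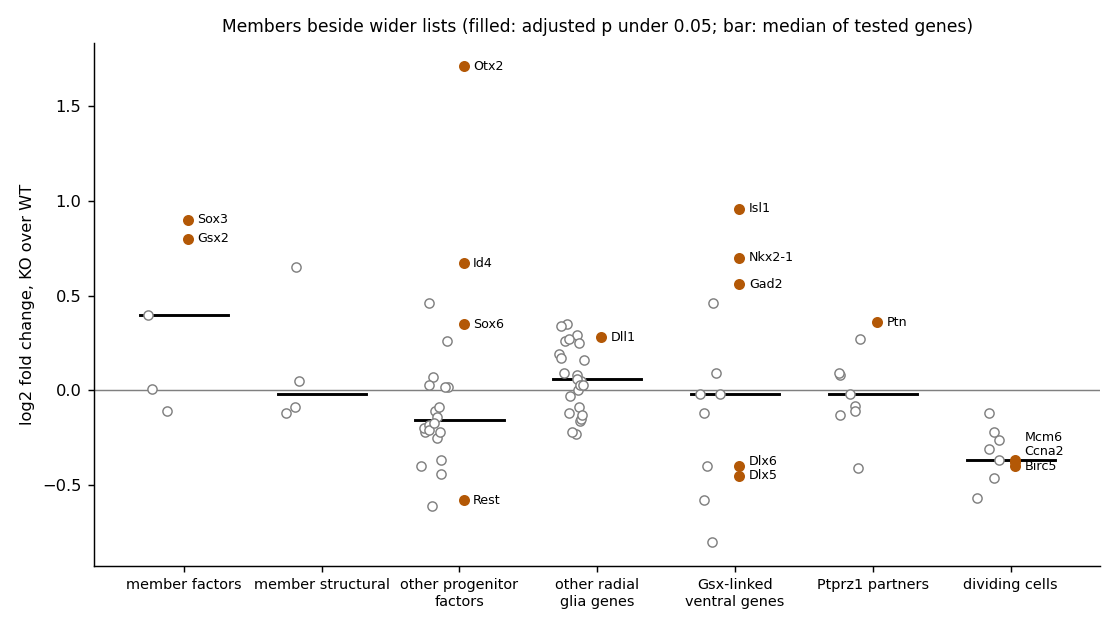
Log2 fold change of KO over WT (y axis) for tested members of 7 lists, with called genes filled and named, uncalled genes open and a bar at the median. The median of the member factors, 0.40, lies above those of the other 6 lists plotted, which run from -0.37 to 0.06. It rests on 5 genes and is the value of Gsx1, which was not called.

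Markers of other cells, some of which use some of these genes, moved in part. For comparison, edgeR called 3.64% of all tested genes higher and 2.62% lower. The blocked fit called more, 6.13% higher and 4.45% lower. Dividing-cell genes gave 0 higher and 3 lower of 10 tested (Ccna2, Mcm6 and Birc5), or 0 and 7 in the blocked fit, and summed to 963 to 1240 CPM in KO and 1240 to 1690 CPM in WT. With a library left out the list had 1 to 3 lower. The Birc5 call was lost in each of these 6 fits (adjusted p up to 0.188), Ccna2 was lost without KO K80 (adjusted p = 0.0568), and Mcm6 kept its call in all 6. Oligodendrocyte precursors, which also express Fabp7, Ptprz1, Nes and Sox9, gave 5 lower of 8 tested, or 6 in the blocked fit. Their 9 markers summed to 75.4 to 86.9 CPM in KO and 150 to 177 CPM in WT. Astrocyte markers gave 0 calls of 6 tested by edgeR, DESeq2 and limma voom, and 1 higher in the blocked fit. An unadjusted p under 0.05 was reached by 1 of them. The list summed to 228 to 269 CPM in KO and 182 to 253 CPM in WT, with Gfap and S100b under the filter. Blood vessel markers, of interest because endothelial cells can express Nes, gave 1 call of 10 tested, the shared precursor and pericyte gene Cspg4, and summed to 28.5 to 39.3 CPM in KO and 35.8 to 59.4 CPM in WT. Markers of young neurons gave 1 higher (Gap43) and 1 lower (Rbfox3) of 9 tested, summing to 5500 to 5750 CPM in KO and 5610 to 6890 CPM in WT. DESeq2 and the blocked fit each called 2 of them lower, Dcx being added by the block (adjusted p = 0.0388). The call of Gap43 did not hold on omitting any of KO K79, KO K80, WT K77 and WT K80, its adjusted p reaching 0.133. Rbfox3 kept its call in all 6 such fits. Cortical glutamatergic markers gave 0 calls of 8 tested by edgeR, DESeq2 and limma voom, with 1 at an unadjusted p under 0.05, and summed to 226 to 285 CPM in KO and 208 to 451 CPM in WT. Without WT K80, 2 of these were called lower, Eomes and Neurog2. Of 8 microglial markers 7 were under the filter, and the list summed to 3.26 to 4.34 CPM in KO and 3.93 to 5.45 CPM in WT. Red cell markers, with Hba-a1 and Hba-a2 at 0 counts in every library, summed to 10.1 to 23.6 CPM in KO and 17.9 to 30.9 CPM in WT. Of 4 red cell markers tested, 0 were called by edgeR without the block and 1 was called lower with it. The part of these cells in the levels of the members was not tested.

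Other tests gave the same 2 calls among the members. DESeq2 called Gsx2 (adjusted p = 0.000931) and Sox3 (adjusted p = 0.000836) higher, where it called 4.03% of genes higher, and limma voom called Gsx2 (adjusted p = 0.0176) and Sox3 (adjusted p = 0.0336), where it called 3.68% higher. Slc1a3 was called by neither, with adjusted p = 0.178 by DESeq2 and 0.0913 by limma voom. Among the members, 3 were called higher in the authors' deposited table. These were Gsx2 (log2 fold change 0.80, adjusted p = 0.000169), Sox3 (0.89, adjusted p = 2.6e-06) and Slc1a3 (0.64, adjusted p = 1.14e-07), where 4.83% of the tested genes were called higher. Gsx1 had an adjusted p of 0.526 in the authors' deposited table.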

How the data were processed

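RNA was measured in 3 KO and 3 WT libraries. Per the labels' protocols, poly-A RNA from 100 ng of total RNA was amplified by 15 PCR cycles and read for 36 cycles as single reads. Named in the submitters' processing notes, without role or order, are mm9, DESeq 1.2.2, HTSeq 0.5.3p3 and TopHat 1.2.0. Which gene annotation and strand setting were used was not given in the sources used here. Raw counts of reads for each gene were deposited, and all 36291 rows equalled the authors' series table. Rows naming no gene were left out, reads without a feature taking 19.75 to 21.77% and ambiguous reads 1.94 to 1.99% of a library. Per the file headers, the authors' deposited comparison held the fold (a ratio), the log2 fold, and raw and adjusted p-values. It was read as KO over WT because all 777 calls that it shared with edgeR agreed in sign.

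Counts were tested in R 4.3.3 with edgeR 4.0.16 (TMM, filterByExpr with a minimum count of 10, quasi-likelihood test, Benjamini-Hochberg adjustment over 13835 genes). Each SE was taken as the absolute log2 fold change over the root of F. Alternatives were RLE factors, DESeq2 1.42.0, limma 3.58.1 voom, other filters and thresholds, haemoglobin and mitochondrial rows dropped, each library left out, and the K number as a block. KO and WT libraries of the same K number moved together around the genotype means, with correlations over genes of 0.256 (K77), 0.197 (K79) and 0.175 (K80), each over the limit of 0.1, which met the rule set for pairing. The reported calls come from the fit without a block, fixed as the main one. Blocked values are given for the member calls and list counts that the block changed, and for some single genes of the lists. Chi-square per degree of freedom between replicates was 3.46 to 4.24 in KO and 5.42 to 9.41 in WT, so none was a repeat of another. Whether each library is its own embryo is not in the labels, so every p-value reflects only the spread among these 6 libraries. The tests were tried on simulated data.

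Named were all 9 members, Zeb2, up to 4 called genes per wider list by lowest p, and the 2 genes nearest to a member; Isl1, Vim, Slc1a2 and the named cell type markers were chosen after their values were seen. From the wider lists, 2 genes are not reported here and enter no list count. The members and lists were chosen with earlier results of these data known.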

Additional observations from a re-analysis of the deposited data

How the results depend on the processing

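Gsx2 and Sox3 stayed higher in KO in every alternative run, with log2 fold changes of 0.65 to 0.92 for Gsx2 and 0.69 to 1.08 for Sox3. Of 126 alternatives for single members, 107 kept the direction and the side of the threshold, 7 lost a call, 3 gained one (each for Slc1a3) and 9 changed sign. Members called higher numbered 1 to 2 with a library left out, 0 without both K79 libraries (a choice made after seeing the data, with fewer samples) and 0 at an adjusted p under 0.01; members called lower numbered 0 to 0. The replicate block on the K number added Slc1a3 to the members called higher (3 in all) and changed no other member's call. With the block 848 genes were higher and 615 lower, against 504 and 363 without it. With a library left out 270 to 645 were higher and 175 to 399 lower. An adjusted p under 0.01 gave 254 higher and 173 lower, one under 0.10 gave 557 lower, and no filter on low counts gave 546 lower.

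Other progenitor factors had 4 higher and 1 lower with the block, and the Gsx-linked genes 3 and 3. Other radial glia genes had 3 higher and 1 lower with the block and 1 lower by DESeq2 and by limma voom. Paralogues had 2 higher and 2 lower with the block and 2 lower by DESeq2 and by limma voom. Ptprz1 partners had 2 higher with the block and by DESeq2. With a library left out the counts were 0 to 3 higher and 0 to 2 lower for other progenitor factors, 0 to 4 and 0 to 0 for other radial glia genes, 2 to 3 and 0 to 2 for the Gsx-linked genes, 1 to 3 and 1 to 1 for paralogues, and 1 to 2 and 0 to 0 for Ptprz1 partners.

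The sign changes were all in uncalled genes near 0. Sox2 went to -0.0017 with no filter, -0.07 without both K79 libraries, and -0.06 to 0.07 with a library left out. Nes ranged over -0.24 to 0.11, Fabp7 over -0.04 to 0.11 and Ptprz1 over -0.19 to 0.02 with a library left out. The log2 difference of factors against structural genes was -0.09 to 0.17 with a library left out, 0.00039 without both K79 libraries and 0.28 as mean log2 CPM (the last 2 chosen after seeing the data). The cause of these shifts was not tested. Gsx1, which was not called, rested on 45 to 99 counts a library, and its interval of -0.08 to 0.87 is the widest of the 9.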
